A study of Bos taurus with 12 samples.

Results

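Endometrium biopsied 14 days after povidone-iodine was put into the uterus was compared with endometrium of the same 3 cows biopsied 2 days after it, on 6 arrays (3 of each day) of the 12 in the series. The other 6 arrays hold biopsies of the same cows on day 0 and day 7 and entered the model to estimate the spread. Povidone-iodine (PVP-I) is an antiseptic that releases iodine, and the labels call the animals fertile cows (Bos taurus). Every group carries the treatment: no untreated cow was sampled, and the labels give neither the uterine horn of a sample, nor the stage of the oestrous cycle, nor whether the day 0 biopsy came before the antiseptic. Days since treatment, stage of the cycle and repeated biopsy therefore cannot be told apart. Each cow counts once per day (n = 3), and p-values measure the spread between biopsies of these 3 cows.

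The endometrium is the lining of the uterus, made of surface and gland epithelium on a stroma that holds vessels and immune cells. After injury or irritation, innate immune cells and epithelium release chemokines, complement and antimicrobial proteins, and the lining is then rebuilt. Its gene expression also follows the ovarian steroids, progesterone and oestrogen, through the cycle. The comparison asks how the tissue differed between an early and a late day after treatment.

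RNA was labelled with Cy3 and read on Agilent bovine oligonucleotide arrays, 1 per sample. Levels are given as log2 signal relative to the 75th percentile of the array, so 0 is a bright probe and values near -8 are dim, and a change is day 14 minus day 2. The day 2 array of cow 3 stands apart: 63.2% of its probes exceeded background clearly, against 71.3 to 76.0% on the other arrays. Markers of the labelled tissue were well above background on all 6 arrays. The epithelial gene EPCAM lay at 4.96, 5.05 and 3.81 on day 2 in cows 1, 2 and 3, and the stromal gene VIM at 6.06, 5.54 and 5.88. The day 2 biopsy of cow 3 also differed in marker genes. The mean level of smooth muscle markers on day 2 was 1.099, 0.713 and 3.39 in cows 1, 2 and 3, and the day 14 levels were 1.12, 0.557 and 2.73. For epithelial markers the day 2 levels were 0.528, 0.273 and -1.204, against -0.244, -0.150 and -0.385 later. The part of this in the results of cow 3 was not tested.

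The deposited value table and the scanner files name different samples for 10 of the 12 arrays, and for 5 of the 6 compared here. Every column of the table matched 1 scanner file with r = 1, and the results below take each array's cow and day from its column. By the table each slide holds 1 cow and each day 1 position on the slide, so cow and slide, and day and position, cannot be told apart. Read by the file links, most of the patterns below were lost or turned, and which naming is right was not settled by another source. List counts by the file links are given with the lists of the main results.

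No probe passed the threshold. In limma, with cow as a block, 0 of 33539 probes (0.0%) had an adjusted p under 0.05, the smallest adjusted p was 0.0698, and 4226 probes (12.6%) had an unadjusted p under 0.05, of which 2229 were higher and 1997 lower on day 14. Without the cow term 13 probes passed, and with only probes measured on all 6 arrays 6. With normexp background correction, an offset of 50 and quantile normalization 12 passed. With the file links 194 passed (91 higher, 103 lower). With array weights 15532 passed, but the estimate of those weights did not reach its tolerance. Without all arrays of 1 cow, or without a single array of day 2 or day 14, between 0 and 8 passed. The text therefore gives values, and no gene below is called changed.

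Over 12800 genes, each read from its brightest probe, 795 (6.21%) were higher and 797 (6.23%) lower at an unadjusted p under 0.05. On day 14, 2177 genes (17.0%) were higher and 2278 (17.8%) lower in 3 of 3 cows. All 3 values of day 14 lay above all 3 of day 2 for 851 genes (6.65%) and below for 928 (7.25%). At least 1 log2 higher in 3 of 3 cows were 89 genes (0.695%), and 102 (0.797%) were at least 1 log2 lower. The median change over all genes was 0.01. The counts at an unadjusted p under 0.05 were 439 higher and 299 lower without cow 1, 274 and 322 without cow 2, and 1473 and 1540 without cow 3. They were 642 and 477 without the day 2 array of cow 1, 392 and 420 without that of cow 2, and 933 and 1072 without that of cow 3. Without the day 14 array of cow 1 they were 644 and 554, without that of cow 2 465 and 585, and without that of cow 3 1081 and 904. By the file links they were 590 and 527.

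The cows differed in their changes. Across 12800 genes the changes correlated at r = 0.587 between cows 1 and 2, at 0.148 between cows 1 and 3 and at 0.0576 between cows 2 and 3. Genes are not independent replicates, and the cows share the array design but no array. Cow 2 had the widest changes, with an SD over genes of 1.07 against 0.702 in cow 1 and 0.728 in cow 3.

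Genes of innate defence were lower on day 14 than on day 2, and so were the enzymes of cholesterol synthesis and a cluster of aldo-keto reductase genes. Markers of T and B lymphocytes were higher, as were the collagen gene COL26A1, the growth factor gene MDK and subunits of the epithelial sodium channel. Haemoglobin genes were higher on day 14 too. None of these genes passed the adjusted threshold, and list counts below are at an unadjusted p under 0.05. Counts from the main fit are to be read against the 6.21% and 6.23% of all genes. Counts with a cow or an array left out, or by the file links, are to be read against the counts over all genes in that setting, given above. Most genes below were named by their change, their p or their spread between cows in these same data. MDK, ASAH1 and the aldo-keto reductase cluster were chosen after their values were seen. So were list members printed as a bare change, such as C1QA and CD3D. The SEs and p-values do not allow for either choice. Dim genes depend on the processing. The setting called normexp joins normexp background correction of the mean signal, an added offset of 50 and quantile normalization. With it, 34 of 88 genes listed for the text differed by over 1.5 times in their log2 change, and 0 turned. An added offset by itself makes the changes of dim probes smaller, and the share of each part was not tested. A bound written "at least" holds on the scale of the processed signal only. In biopsies, fewer cells of a type and less RNA per cell cannot be told apart.

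The aldo-keto reductases of the AKR1C group reduce steroids and prostaglandins; the 20-alpha reductase turns progesterone into a weaker progestin. Their probes lie side by side on chromosome 13, and they are shown because their sequences bear on how far the genes can be separated. Positions are those of build Btau 3.1 in the scanner files, plus strand. The probe of LOC527068 (named aldo-keto reductase 1C3-like) spans chr13:43804526-43804777, that of AKR1C3 chr13:43727691-43729164, that of LOC785762 (dihydrodiol dehydrogenase 3) chr13:43612778-43613268, that of 20ALPHA-HSD chr13:43951930-43952403 and that of AKR1C4 chr13:43765452-43766362 (not its brightest probe). Each probe has 60 bases and its span is longer, so its letters are not contiguous in that build. Capitals mark the longest run shared by LOC527068 and AKR1C3 (23 bases) and by LOC785762 and 20ALPHA-HSD (32 bases).
LOC527068: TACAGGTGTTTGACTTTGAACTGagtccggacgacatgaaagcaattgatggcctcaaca
AKR1C3: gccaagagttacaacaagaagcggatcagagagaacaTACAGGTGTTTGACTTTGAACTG
LOC785762: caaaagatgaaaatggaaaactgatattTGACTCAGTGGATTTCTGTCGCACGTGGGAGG
20ALPHA-HSD: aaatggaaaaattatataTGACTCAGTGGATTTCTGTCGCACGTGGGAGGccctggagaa
AKR1C4: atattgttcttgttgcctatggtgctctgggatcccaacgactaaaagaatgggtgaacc

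The cluster was singled out after its values were seen, and its members were then taken by annotation text alone: 16 probes of 9 gene names over 400.8 kb. On its brightest probe AKR1C4 had levels of 2.76, 3.61 and 2.38 on day 2 in cows 1, 2 and 3, and of -1.28, -3.96 and -0.96 on day 14. Every day 14 value was below every day 2 value, and cow 2 had the widest gap. The change was -4.98 ± 0.84 (SE, n = 3; limma adjusted p = 0.124), and the gene's other probes gave -4.84 and -4.88.

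20ALPHA-HSD went from -0.14, 0.65 and -0.55 on day 2 to -4.61, -6.03 and -4.27 on day 14, with no overlap (change -4.96 ± 0.63, limma adjusted p = 0.0874). The brightest AKR1C3 probe went from -0.06, 0.93 and -0.86 to -4.12, -5.46 and -4.54 (-4.71 ± 0.64, limma adjusted p = 0.0892). These genes, too, were lower in each cow without overlap.

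LOC527068 has 5 probes. Changes of -3.91, -4.59 and -4.97 were measured on 3, and the others were not well above background on any array of day 14, at least 7.76-fold and at least 18.6-fold lower. The probe shown above, with an adjusted p of 0.0698 in limma, lay at -1.60, -1.66 and -2.39 on day 2 and at -5.51, -6.32 and -5.56 on day 14. LOC785762 was not well above background on any array of day 14 and was at least 12.4-fold lower there (measured means -3.05 on day 2 and -8.66 on day 14; log2 change -1.56 with normexp).

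The members differed. Of the 16 probes 13 were lower in 3 of 3 cows, 13 had an unadjusted p under 0.05 and 10 had a change of -4 or below. Among all 33539 probes 1997 were lower at an unadjusted p under 0.05, and 17.8% of genes were lower in 3 of 3 cows. As the cluster was singled out by its values, its counts are a description only. On day 14, 5 of the 16 were not well above background on any array, among them 3 of those 10, and their changes are bounds only. The median change was -4.65, and -4.07 with these 5 at their bounds. LOC782061 (named 1C1-like), 1 of the 5, was at least 2.64-fold lower, and the predicted 1C3-like transcript ENSBTAT00000024453 had -2.05. LOC782922, named like a prostaglandin F synthase, had 0.49 but was not well above background on any array of day 2, and AKR1E2, at the far end, had 0.02. The gene on the other side, NET1, a guanine nucleotide exchange factor, had changes from -0.09 to 0.55 on 4 probes.

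The probes are not independent readings of separate genes. Of the 16, 6 list a transcript of another member in their own annotation and 9 share a run of 15 or more bases with a probe of another member. Up to 51 of 60 bases were identical between probes of different members. How much each probe binds the transcripts of the others was not tested. AKR1C4 had a mean of 1.17 on day 0 and 0.35 on day 7, so day 2 was its highest day. AKR1C4 had a change of -0.93 by the file links and of -4.51 with normexp.

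**Figure D1:**
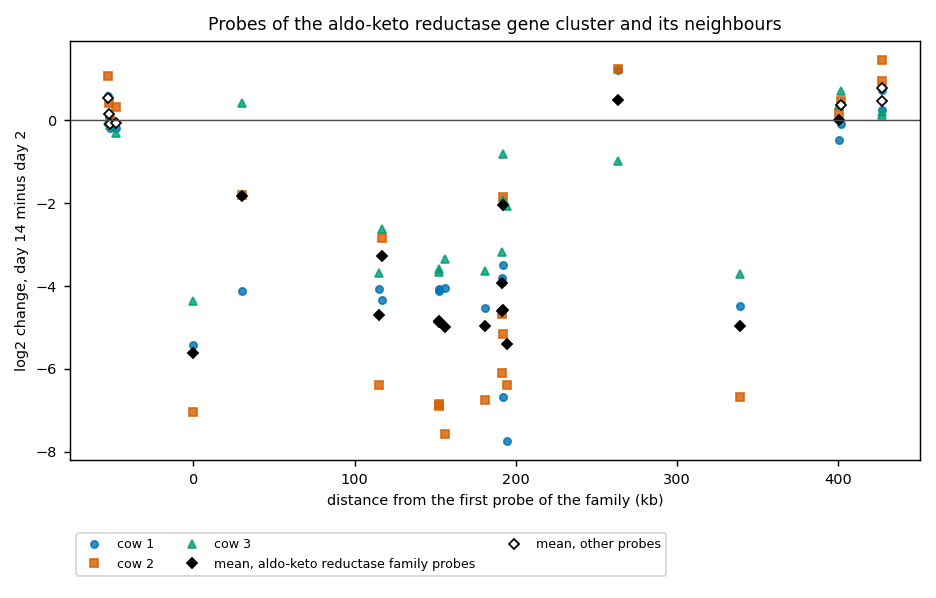
Log2 change, day 14 minus day 2 (vertical axis), of each probe by its distance in kb from the first probe of the aldo-keto reductase cluster (horizontal axis); coloured points are the 3 cows, filled diamonds the mean of probes annotated to the family and open diamonds the mean of other probes. The family's probes lie between -5.61 and 0.49, with 10 of 16 at or below -4; 5 of the 16, the lowest included, were not well above background on any array of day 14. The NET1 probes at the left edge lie between -0.09 and 0.55.

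Genes of acute inflammation, the signals that draw leukocytes, were mostly lower on day 14. Of 28 measured, 9 were lower and 1 higher at an unadjusted p under 0.05 in limma, and the median change was -0.56. CCL2, which attracts monocytes, lay at 2.88, 3.15 and 2.75 on day 2 and at 0.15, 0.62 and -0.15 on day 14. The day 14 values were all below those of day 2, and the cows were close to each other (change -2.72 ± 0.44, limma adjusted p = 0.119). CXCL8, which attracts neutrophils, had -2.37 ± 0.59, the chemokine CCL3 -2.13 ± 0.43 and CXCL9, which attracts T cells, -1.61 ± 0.34. The other CCL3 probe gave -1.05. By the file links CCL2 had 0.38. Without the day 2 array of cow 3 the list had 7 lower and 2 higher, and by the file links 1 lower and 1 higher. CXCL8 and CCL3, which are dim, had -0.848 and -1.001 with normexp.

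Antimicrobial and acute phase genes had the lowest median of the lists, -1.29, with 11 of 26 lower and 0 higher at an unadjusted p under 0.05, and 0 either way by the file links (median 0.20). S100A12, an antimicrobial calcium-binding protein of neutrophils, went from 2.78, 2.32 and 1.42 to -0.33, 0.31 and -1.07. The days did not overlap (change -2.54 ± 0.39, limma adjusted p = 0.0947), and its other probes gave -2.41 and -2.77. CHI3L1, a chitinase-like glycoprotein, had -4.005 ± 0.63, and the beta-defensins DEFB7 and LAP had -2.21 ± 0.48 and -2.14 ± 0.56 (-1.41 and -0.90 with normexp). CHI3L1 had 2.34 by the file links. Defensin genes are close in sequence, and binding of their probes to each other's transcripts was not tested.

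HP, haptoglobin, which binds free haemoglobin, had the largest mean difference of the lower genes. It lay at 0.04, 3.66 and -1.61 on day 2 and at -5.85, -6.91 and -3.79 on day 14, where 2 of 3 arrays measured it. The cows differed widely within each day, yet the days did not overlap (change -6.21 ± 1.62, limma adjusted p = 0.215), and the other probes gave -5.64 and -6.78. HP had 0.87 by the file links.

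Complement genes had 11 of 24 lower and 0 higher, with a median of -0.998. C6, of the membrane attack complex, was at least 4.74-fold lower on day 14, and CFP, properdin, had -1.36 ± 0.31 on its brightest probe and -0.73 on the other. C4A had -1.31 ± 0.36 and CD55, which restrains complement on cells, -1.24 ± 0.28. The genes of C1q, a part of the first component, were not lower: C1QA had 0.07, C1QB 0.39 and C1QC 0.67. The complement count was 5 lower without cow 2, 7 without cow 1, without the day 2 array of cow 2 or without the day 14 array of cow 2, 6 without the day 14 array of cow 1, and 8 without the day 2 array of cow 3 (median -0.652). It was 0 lower and 1 higher by the file links. With normexp C6 had -0.76.

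Markers of macrophages and dendritic cells were lower, with 13 of 22 lower and 2 higher and a median of -1.08. SLC11A1, a metal transporter of the phagosome, went from -2.22, -1.62 and -2.56 to -4.65, -6.58 and -6.76 without overlap, and 1 of 3 arrays of day 14 measured it (change -3.86 ± 0.56, limma adjusted p = 0.0896). The defining marker CD68 had -1.48 ± 0.36, CD14 -1.75 ± 0.43 and SPP1, osteopontin, -4.49 ± 1.05. SLC11A1 had -1.78 with normexp, and SPP1 0.77 by the file links.

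GPNMB, a glycoprotein of macrophages, went the other way, from 0.54, 0.84 and 1.09 to 2.67, 3.28 and 2.68, again without overlap (change 2.06 ± 0.42, limma adjusted p = 0.171). Without the day 2 array of cow 3 the list had 7 lower and 1 higher, and without cow 1 also 7 and 1. It had 1 lower and 0 higher by the file links. It had 8 lower without cow 3 (median -0.574), without the day 14 array of cow 1 or without that of cow 3. Neutrophil markers had 5 of 14 lower and 1 higher (median -0.39), 3 lower without the day 2 or the day 14 array of cow 1, and 0 either way by the file links. The median was -1.08 without cow 2, -0.946 without its day 14 array and -0.737 without its day 2 array, against -0.20 without cow 3 and -0.248 without its day 14 array.

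Markers of lymphocytes were higher on day 14. Among T and NK cell markers 12 of 23 were higher and 0 lower, with a median of 0.95. CD3E, a chain of the T cell receptor complex, went from -2.54, -3.50 and -3.23 to -1.34, -1.85 and -1.73. Each day 14 value exceeded each day 2 value (change 1.45 ± 0.21, limma adjusted p = 0.0896). CD5 had 1.82 ± 0.34, the kinase gene ZAP70 0.99 ± 0.20 and CD2 1.03 ± 0.24, while CD3D had -0.25 and the cytotoxic genes GZMA and GNLY had 0.10 and -0.14. On day 2 CD5 was measured on 1 and CD2 on 2 of 3 arrays. The T cell count was 6 higher without cow 2 and 8 without the day 14 array of cow 3 or the day 2 array of cow 1 or cow 2; without the day 2 array of cow 3 it was 11 higher and 1 lower.

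Among B and plasma cell markers 6 of 14 were higher and 0 lower, with a median of 0.71. MS4A1, the CD20 antigen, was at least 2.20-fold higher, TNFRSF13C, the BAFF receptor, had 1.96 ± 0.47 and JCHAIN, of secreted antibodies, 1.198 ± 0.39. The other TNFRSF13C probe gave 1.08 and was measured on 0 arrays of day 2. IGCGAMMA, named for an immunoglobulin constant region, had 3.202 ± 0.648 and was measured on 1 of 3 arrays of day 2. With normexp CD5 had 0.36, CD2 0.42, MS4A1 0.45, TNFRSF13C 0.97 and IGCGAMMA 0.89. By the file links, T and NK cell markers had 0 higher and 2 lower, and B cell markers 0 in either direction.

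Globin genes, markers of red blood cells, were higher beside these immune genes. HBB, beta globin, was not well above background on day 2 in any cow and lay at -1.57, -2.16 and -2.51 on day 14, at least 15.9-fold higher (log2 change 1.75 with normexp). HBG had 3.76 ± 0.76 (2.24 with normexp) and HBA 1.18 ± 0.47, and AHSP, which stabilises alpha globin, had -0.18. The other HBG probes gave 2.52 and 1.22, and were measured on 0 and 1 of 3 arrays of day 2. In all 3 of 7 red cell and platelet markers were higher and 0 lower (median 0.37, and -0.08, 0.10 and 1.34 in cows 1, 2 and 3). Without the day 2 array of cow 3 there were 2 higher and the median was -0.085; without cow 3 there were 2 and it was -0.118, and without the day 14 array of cow 3 it was 0.172. There were 0 higher by the file links. Their mean level lay between -3.82 and -3.76 on day 2 and between -2.49 and -2.42 on day 14. The part of blood in the biopsies in the immune values was not tested.

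Cholesterol and fatty acid synthesis had 17 of 27 genes lower and 0 higher, the largest share of a list at an unadjusted p under 0.05, with a median of -0.75. For 14 of the 27, all values of day 14 were below all of day 2, against 7.25% of all genes. CYP51A1, which demethylates lanosterol, went from 2.60, 2.95 and 1.89 to 1.22, 0.78 and 0.98 (change -1.49 ± 0.29, limma adjusted p = 0.16). The squalene epoxidase gene SQLE had -1.09 ± 0.25, HMGCS1, at the head of the pathway, -1.10 ± 0.28 and the sterol oxidase gene MSMO1 -0.95 ± 0.24.

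The medians of this list by cow were -0.77, -1.43 and -0.19, so cow 3 had the smallest. Its count was 4 without cow 2 and 25 without cow 3. The lower genes over all genes moved the same way, from 797 to 322 without cow 2 and to 1540 without cow 3. It was 10 without the day 2 array of cow 1, the day 2 array of cow 2 or the day 14 array of cow 2, and 22 without the day 2 array of cow 3. It was 0 by the file links.

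**Figure D2:**
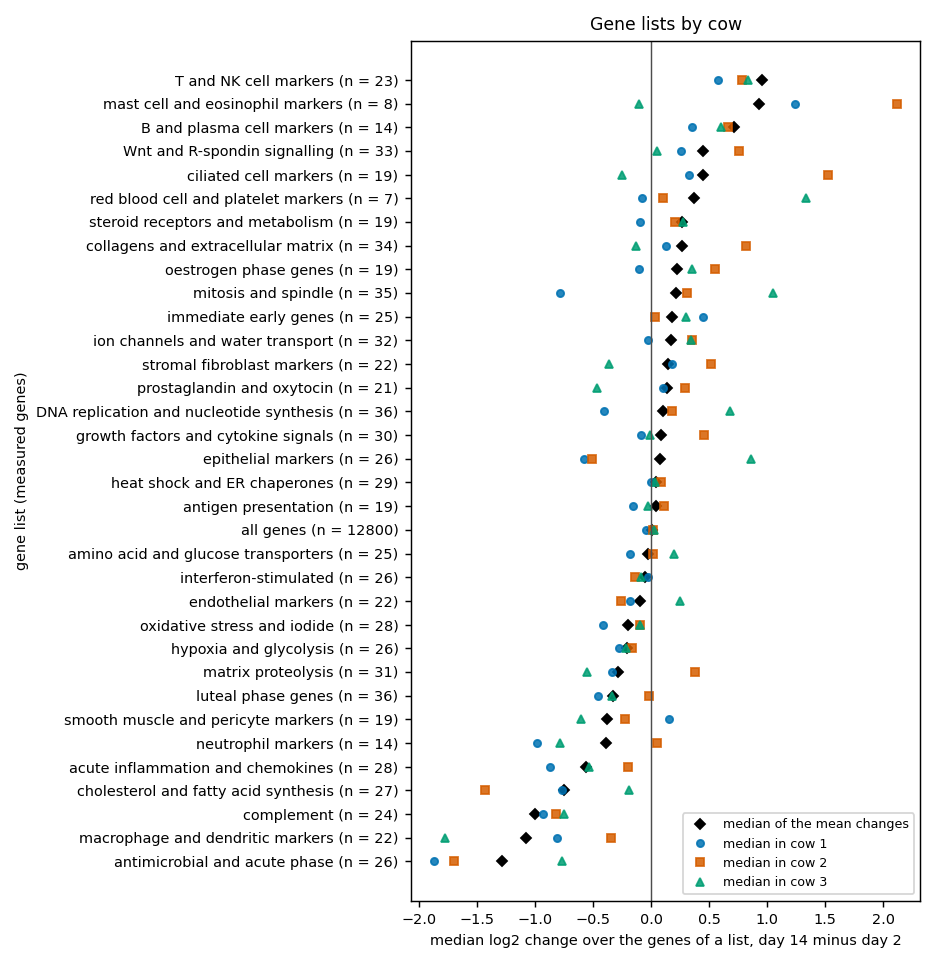
Median log2 change, day 14 minus day 2 (horizontal axis), over the measured genes of each gene list (vertical axis, number of genes in brackets); coloured points are the medians in the 3 cows and diamonds the medians of the mean changes. Antimicrobial (-1.29), macrophage (-1.08) and complement genes (-0.998) lie lowest and T and NK cell markers (0.95) highest, while the median of all genes is 0.01.

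The genes highest on day 14 against day 2 were of mixed function. COL26A1, a collagen, went from -2.57, -1.95 and -3.70 on day 2 to 2.46, 3.81 and 1.66 on day 14. The days lay far apart in each cow (change 5.39 ± 0.54, a 41.8-fold difference, limma adjusted p = 0.0698), and the second probe, not well above background on day 2, gave 3.04. On day 0 its mean was 1.95. Its change was -2.21 by the file links.

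MDK, midkine, a heparin-binding growth factor, was singled out after its values were seen, as 1 of the 5 probes with the smallest adjusted p. It went from 0.82, 0.55 and 0.19 to 3.04, 3.80 and 2.51, without overlap (change 2.60 ± 0.26, limma adjusted p = 0.0698), and its second probe gave 2.95. Its mean was 2.64 on day 0, and by the file links it had -0.64.

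SCNN1B and SCNN1G encode subunits of the epithelial sodium channel, which draws fluid from the lumen. SCNN1B went from -6.03, -7.03 and -7.61, where 1 of 3 arrays measured it, to -1.66, -2.39 and -4.83 (change 3.93 ± 0.58, limma adjusted p = 0.0896). SCNN1G was at least 2.20-fold and the potassium channel gene KCNH6 at least 3.00-fold higher, both as means. The changes of KCNH6 were 3.13, 0.30 and 2.15 in cows 1, 2 and 3. Ion and water transport genes had 5 of 32 higher and 0 lower (median 0.17). The list had 3 higher and 1 lower without cow 2 or its day 14 array (median 0.071 without that array), 4 without the day 2 array of cow 2, 7 without cow 3 or its day 14 array, and 2 higher and 3 lower by the file links. With normexp SCNN1B had 1.65, SCNN1G 0.53 and KCNH6 0.61.

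The transcription factor genes TFAP2C and TFAP2A had 3.93 ± 1.02 and 3.07 ± 0.71, and on day 2 they were measured on 2 and 1 of 3 arrays. The other TFAP2A probe gave 1.19 and was measured on 0 arrays of day 2. NPPC, C-type natriuretic peptide, was at least 8.91-fold higher, the protease gene ADAMTS18 at least 5.97-fold and TEX29 at least 1.91-fold. RBFOX3, a splicing factor best known from neurons, was higher by 2.07, 5.65 and 1.88 in cows 1, 2 and 3. RBFOX3 was measured on 1 of 3 arrays of day 2, and its days overlapped (-5.63 on day 14 in cow 1, -3.14 on day 2 in cow 3). SHISA2, which restrains Wnt and FGF receptors, had 3.95 ± 1.11 on its brightest probe but 0.33 on the other. With normexp TFAP2C had 2.39, TFAP2A 0.86, NPPC 1.35, ADAMTS18 1.19, TEX29 0.70 and RBFOX3 1.202.

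The genes lowest on day 14 against day 2 included secreted proteins of mucosal surfaces. SERPINA14, the uterine serpin, which progesterone induces, went from 3.18, 4.39 and 1.25 to -2.30, -6.45 and -0.06. The days did not overlap, but the gap in cow 3 was far smaller than in cow 2 (change -5.88 ± 1.62, limma adjusted p = 0.227). The airway and mucosal proteins BPIFB1 and SCGB1D had -4.82 ± 1.90 and -4.77 ± 1.39, and the related BPIFA1 had changes of -4.61, -10.1 and -1.63 in cows 1, 2 and 3. On day 14 SERPINA14, SCGB1D and BPIFA1 were measured on 2 of 3 arrays.

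C29H11orf86 was at least 30.1-fold lower, as a mean over day 2 levels of 0.65, -0.94 and -5.01. NPPB, B-type natriuretic peptide, had -4.98 ± 1.06, CES4A, a carboxylesterase, -4.97 ± 0.65 and WFDC11, of a family of protease inhibitors, -4.84 ± 1.01. On day 14 NPPB was measured on 1 of 3 arrays, and CES4A and WFDC11 on 2 of 3. With normexp C29H11orf86 had -2.68, NPPB -2.06, CES4A -2.78 and WFDC11 -2.56. By the file links SERPINA14 had 2.60 and BPIFB1 0.13.

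**Figure D3:**
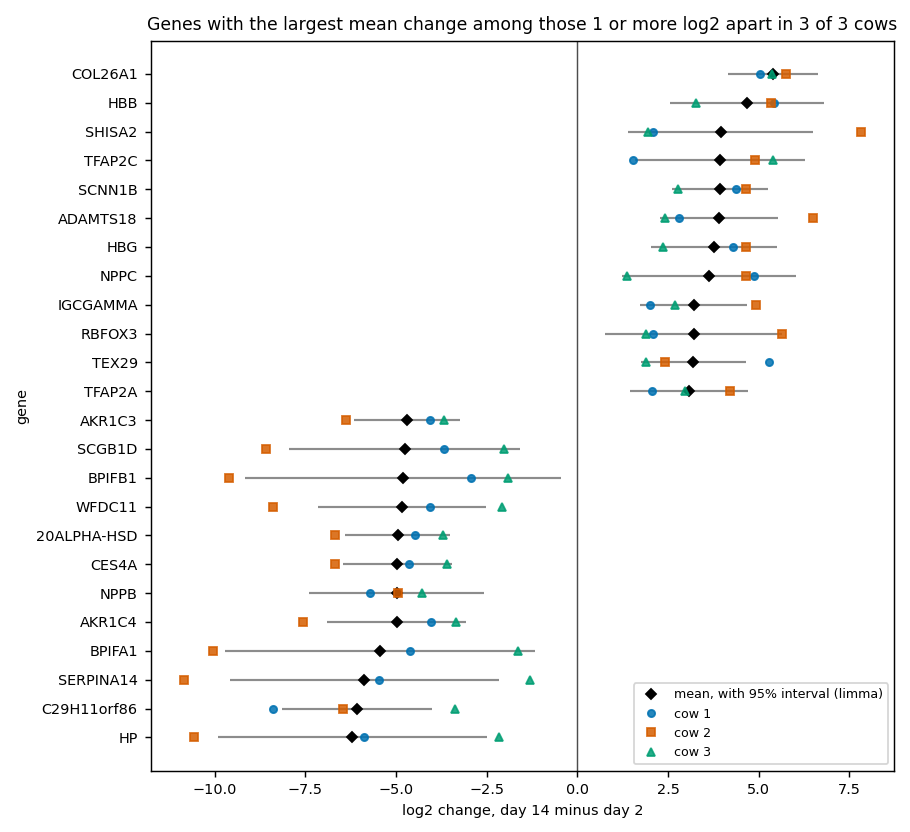
Log2 change, day 14 minus day 2 (horizontal axis), of the 12 highest and the 12 lowest genes by mean among those at least 1 log2 apart in 3 of 3 cows (vertical axis); coloured points are the cows, diamonds the means and lines the 95% intervals from limma. Cow 2 lies farthest from 0 for most of the lower genes, such as HP and SERPINA14, and COL26A1 (5.39) has its cows close together.

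Genes that shape the extracellular matrix lay on both sides, with 4 of 31 proteolysis genes higher and 6 lower (median -0.29). The inhibitor gene TIMP2 went from 6.69, 6.73 and 6.598 to 5.48, 5.34 and 5.61, narrow within each day and without overlap (change -1.20 ± 0.15, limma adjusted p = 0.0874). Its other probes gave -2.07 and -0.49. The list had 3 lower without cow 1, 10 lower without the day 14 array of cow 2, 7 higher without cow 3 (median 0.027), 2 higher without cow 2 or either of its arrays, and 1 either way by the file links. The inhibitor gene TIMP1 had -1.22 ± 0.27, while the matrix metalloproteinases MMP2 and MMP14 had 1.40 ± 0.29 and 1.24 ± 0.31. Collagen and matrix genes had 1 of 34 higher and 2 lower (median 0.26). Without the day 2 array of cow 3 or without cow 3, 10 of the 34 were higher and 1 lower, without the day 14 array of cow 3 there were 4 higher, and without cow 2 0 were higher and 3 lower (median -0.026). There were 2 higher and 1 lower by the file links.

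ASAH1, acid ceramidase of the lysosome, lay at 4.36, 4.52 and 4.28 on day 2 and at 3.40, 3.03 and 3.07 on day 14 (change -1.22 ± 0.16, limma adjusted p = 0.0892). Its days did not overlap. It was singled out after its values were seen, because it passed under some other settings.

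Wnt genes, which steer growth and patterning of the uterus, had 7 of 33 higher and 1 lower (median 0.45). WNT5B had 2.10 ± 0.55, WNT5A 1.27 ± 0.33 and SFRP1, a secreted Wnt antagonist, 1.34 ± 0.42, while the antagonist DKK1 had -2.63. The count was 1 higher without cow 2, 2 without the day 2 array of cow 2, 3 without the day 14 array of cow 2 and 10 without cow 3 (with 2 lower). It was 4 higher and 2 lower by the file links, and WNT5B had 1.39 with normexp.

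Luteal phase genes, which are known to follow progesterone, had 10 of 36 lower and 2 higher (median -0.33), among them SERPINA14, SPP1, the protease gene MEP1B (-3.18 ± 0.83) and HPGD, which inactivates prostaglandins (-2.42 ± 0.75). Oestrogen phase genes had 2 of 19 higher and 1 lower (median 0.22). The oestrogen receptor gene ESR1 had 0.37 and the progesterone receptor gene PGR 0.28. Prostaglandin and oxytocin genes had 2 of 21 higher and 4 lower (median 0.14), with the prostaglandin D synthase gene PTGDS at 1.14 ± 0.30 and OXT, oxytocin, at 2.73 ± 0.77. The luteal count was 5 lower without cow 2 or without its day 2 array, 6 without cow 1, and 1 by the file links. Prostaglandin genes lower numbered 1 without cow 2 or its day 2 array, 2 without cow 1, and 6 without cow 3. Those higher numbered 5 without cow 3 and 4 without its day 2 or its day 14 array, and the median was -0.02 without the day 2 array of cow 2. Oestrogen phase genes higher numbered 4 without cow 3 or its day 2 array.

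Oxidative stress genes had 7 of 28 lower and 4 higher (median -0.20). The metallothioneins MT1A and MT2A, which bind zinc and copper, had -1.38 ± 0.30 and -1.56 ± 0.35. The other MT2A probes gave -1.51 and -0.23. Immediate early genes, which respond fast to stimuli and handling, split: FOSL1 had -3.05 ± 0.55 and FOS 1.72 ± 0.45, with 3 of 25 higher and 1 lower. Those higher numbered 8 without the day 14 array of cow 2, and 1 without cow 1, without its day 14 array or without the day 2 array of cow 3. Glycolysis and hypoxia genes had 6 of 26 lower and 1 higher, with the hexokinase gene HK2 at -1.56 ± 0.41. Among endothelial markers ESM1, of sprouting vessels, had -1.60 ± 0.27 (4 of 22 lower, 1 higher). The endothelial genes lower numbered 8 without cow 3 or its day 2 array, 2 without cow 1, cow 2 or the day 2 array of either, and 1 without the day 14 array of cow 1. With normexp FOSL1 had -1.05 and HK2 -0.90. FOSL1 was measured on 2 arrays of day 2 and 1 of day 14. Oxidative stress genes lower numbered 2 without cow 2, 3 without cow 1 or without the day 2 array of cow 2, and 4 without the day 14 array of cow 1 or of cow 2, and hypoxia genes 2 without cow 1 and 3 without cow 2, without cow 3, or without the day 2 array of cow 1 or of cow 3. Lower by the file links were 0 oxidative stress genes and 1 hypoxia gene.

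Proliferation genes differed in sign between cows. Mitosis genes had 0 of 35 higher and 1 lower, with medians of -0.79, 0.31 and 1.05 in cows 1, 2 and 3, and DNA replication genes had 1 of 36 higher and 1 lower (-0.41, 0.18 and 0.68). MKI67 was not measured. Epithelial markers had medians of -0.57, -0.51 and 0.86, with KRT17 at -3.11 ± 0.93 on its brightest probe, measured on 2 arrays of day 2 and 1 of day 14 (-0.93 with normexp), and -0.49 on the other. In each of these lists the change was highest in cow 3. The mean level of smooth muscle markers in cow 3 was 1.02 on day 0, against 0.777 and 0.484 in cows 1 and 2. In cow 3 it was 3.39 on day 2, 2.50 on day 7 and 2.73 on day 14. The part of the make-up of the biopsies of cow 3 in these changes was not tested. Without the day 2 array of cow 3 the medians were -0.223 for mitosis, -0.13 for DNA replication and -0.517 for epithelial markers, of which 5 were lower; without cow 3, 6 were lower.

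Ciliated cell markers had 4 of 19 higher and 0 lower, with medians of 0.32, 1.52 and -0.25. FOXJ1, which drives the making of motile cilia, had 1.23 ± 0.39 and the dynein gene DNAI1 1.14 ± 0.33. Their count was 9 without cow 3 or without its day 14 array, 3 without its day 2 array, 2 without cow 1 or either of its arrays, and 1 without cow 2 or either of its arrays (median -0.026 without cow 2). With normexp FOXJ1 had 0.50 and DNAI1 0.28. By the file links 16 of 19 were lower. Mast cell and eosinophil markers had 2 of 8 higher, the tryptase gene TPSB2 (1.68 ± 0.61) and the eotaxin receptor gene CCR3 (2.16 ± 0.78). The medians of this list were 1.24, 2.12 and -0.10 in cows 1, 2 and 3. TPSB2 had changes of 2.26, 2.91 and -0.13, so it was not higher in cow 3. Other probes gave 1.77 and 0.77 for TPSB2, and 0.41 for CCR3 where it was measured on 0 arrays of day 2 and 1 of day 14. Without cow 1, its day 2 array or the day 14 array of cow 2 0 were higher, without cow 3 there were 5, without its day 2 array 3, and 1 in the other leave-outs. The file links gave 0 higher.

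The other lists stood near the share of all genes. Interferon-stimulated genes had 1 of 26 higher and 1 lower (median -0.05), antigen presentation 0 of 19 either way (0.04), growth factors 2 of 30 higher and 3 lower (0.09) and heat shock genes 2 of 29 and 1 (0.04). Amino acid and glucose transporters had 1 of 25 higher and 2 lower (-0.03), and steroid receptors and metabolism 1 of 19 and 1 (0.27). Stromal markers had 0 of 22 higher and 2 lower (0.15), with S100A4 at -1.85 ± 0.35, and smooth muscle markers 0 of 19 either way (-0.38). With a cow or an array left out the counts of these lists stayed between 0 and 5; stromal genes had 5 higher without the day 14 array of cow 3, 4 without cow 3 and 3 without its day 2 array, and the smooth muscle median was 0.263 without that day 2 array. By the file links, 16 of 19 smooth muscle markers were higher, with a median of 2.47.

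Some bright genes differed most between cows. CRIPTO, a co-receptor of Nodal, lay at 5.13, 5.06 and 5.16 on day 2 and at 3.10, -4.34 and 4.46 on day 14, so that cow 2 lay far below the others. The gap junction genes GJB5 and GJB1 showed the same low cow 2, at -5.02 and -2.87 against 1.57 and 2.06 in cow 1 and 2.12 and 3.30 in cow 3. LMAN1L had 1.43, -2.94 and 5.03 on day 14 and TDRD9 had -1.79, -5.49 and 1.71. Low levels of these genes were not confined to cow 2. On day 7 CRIPTO lay at -1.975, -2.617 and -0.771 in cows 1, 2 and 3, and GJB5 at -5.36, -2.99 and -2.75. GJB1, LMAN1L and TDRD9 were also lower on day 7 than on day 2 in each cow. NPY, a neuropeptide, went from -4.31, -4.58 and -3.48 on day 2 to -1.27, 2.92 and -4.59 on day 14 in cows 1, 2 and 3. On day 7 it lay at 1.47, 1.32 and 3.58. Without cow 2 the change of GJB1 turned from -1.17 to 1.12.

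**Figure D4:**
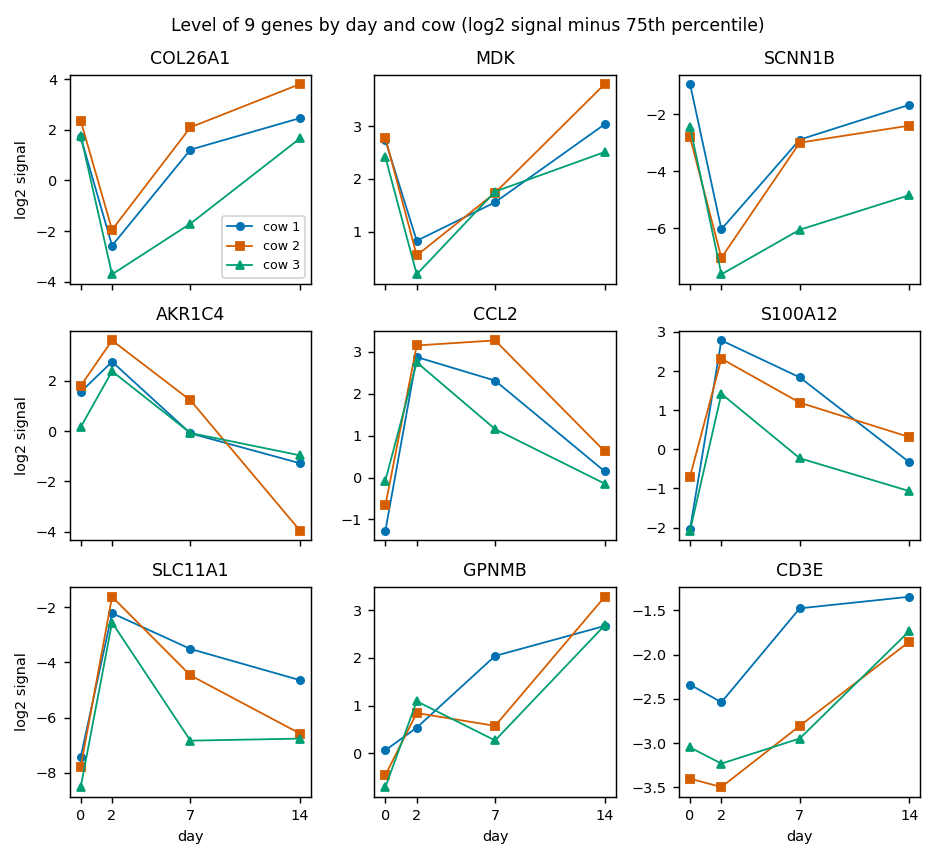
Log2 signal minus the 75th percentile of the array (vertical axis) of 9 genes on days 0, 2, 7 and 14 (horizontal axis), with 1 line per cow. COL26A1, MDK and SCNN1B are lowest on day 2 in each cow, CCL2 is lower on day 14 than on day 2 in each cow, and CD3E is highest on day 14 in each cow.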

How the data were processed

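The authors deposited scanner files holding a processed intensity for each spot. Per the file headers they come from Feature Extraction 11.5.1.1, and per the submitters' processing notes from 10.5.1.1. The authors also deposited a log2 table. Compared with the scanner files, it equals log2 intensity after scaling to the 75th percentile of the array and centring each probe on its median; scale, centring and direction rest on this match. Column medians in cows 1, 2 and 3 were 0.01, -0.03, -0.07 (day 0), 0.05, -0.06, 0.03 (day 2), 0.08, -0.02, 0.00 (day 7) and -0.03, 0.00, 0.02 (day 14).

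Here log2 intensity was scaled to the same percentile. Left out were 1417 control spots, 31 of 43653 probes with outlier flags, and probes well above background on fewer than 3 arrays. Limma 3.58.1 (R 4.3.3), tested on simulated data, fitted day with cow as block to all arrays (residual degrees of freedom 6, prior 2.33). P-values of 33539 probes were adjusted by Benjamini-Hochberg at 0.05. Cows are paired by the animal number in the labels, and deviations of day 2 and day 14 within a cow correlated at 0.470, 0.209 and 0.447. RefSeq names were matched to 20582 probes by their own accession, 1604 by another, 9850 by a current and 402 by an older symbol, and 11184 kept the name in the file. A fold "at least" sets the brighter day's mean against, per array, the higher of the probe's value and the lowest signal well above background.

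Named were the 12 highest and 12 lowest genes by mean change among those at least 1 log2 apart in 3 of 3 cows and measured on the higher day, up to 4 members per list by p with defining markers, and the 6 genes whose cows differed most. Members and lists were chosen with earlier results of these data known. The number of arrays limits the precision.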

Additional observations from a re-analysis of the deposited data

How the results depend on the processing

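Limits. The count of probes past the threshold was 0 as reported. It was also 0 with the replicate block on only the arrays of day 2 and day 14, with quantile normalization, with the authors' table and with no filter. With no replicate block, so without the pairing by cow, it was 13; with normexp 12; with probes measured on all 6 arrays 6; with array weights 15532; with the file links 194. Leaving out a cow or a single array gave 0 to 8. The cause of these differences was not tested. A planned search of promoters was not run, because no promoter sequences were used here. Dim probes hold only bounds.

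With the file links 38 of the 88 genes run turned. Higher in the table's naming and lower there were COL26A1 (-2.21), TFAP2C (-2.30), SCNN1B (-2.33), TEX29 (-1.99), TFAP2A (-0.49), MDK (-0.64), CD5 (-0.18), ZAP70 (-0.75), TNFRSF13C (-0.83), HBA (-0.73), DNAI1 (-1.71), FOXJ1 (-1.51), MMP2 (-0.0468), MMP14 (-0.48), WNT5A (-0.50), PTGDS (-0.38), OXT (-0.38), SCNN1G (-0.34) and KCNH6 (-1.90). Lower in the table's naming and higher there were HP (0.87), SERPINA14 (2.60), BPIFB1 (0.13), CCL2 (0.38), CCL3 (0.72), CXCL8 (0.31), CHI3L1 (2.34), DEFB7 (0.31), C6 (0.54), CD55 (0.66), SPP1 (0.77), CD68 (0.0741), S100A4 (0.45), SQLE (0.54), HMGCS1 (0.24), TIMP2 (0.19), TIMP1 (0.50), MEP1B (1.41) and MT2A (0.89). Of the 88 genes run, GJB1 alone turned when arrays were left out, with a range over those settings from -3.28 to 1.12 (0.95 without the day 14 array of cow 2).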
